A study of Mus musculus with 4 samples.

Results

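This account is about the stretches of the mouse genome that carried a called peak of H3K27me3 in both Kdm6b knockout (KO) libraries and in neither wild-type (WT) library. They were selected on the deposited peaks themselves: peaks of all 4 lists on chromosomes 1 to 19 were merged wherever they overlapped or touched, and a merged region was kept if a peak of each KO list and no peak of either WT list lay in it. Of 116146 merged regions, 3953 (3.40%) met this rule, against 2088 (1.80%) with the reverse pattern of both WT and neither KO and 26744 called in all 4. The order of the KO-only and WT-only counts turned with lists of equal covered length (513 and 1727) and without WT replicate 2 (5477 and 15653). In the latter case a WT-only region needed a peak in only 1 list. Because the genotype contrast chose the members, their number, presence and peak height are given as descriptions with no test.

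The libraries were CUT&Tag maps from germinal center B cells sorted from the spleens of C57BL/6 mice, 2 KO and 2 WT, 1 library per mouse. All mice had received sheep red blood cells, a second dose on day 5, and were killed on day 12. KO mice lacked Kdm6b in B cells, and no source used here names the Cre driver or the deleted exons. The series calls the cells pre-plasma. A map of a repressive mark does not measure expression, so the cell type could not be checked from marker genes, and no KO-only region met the body or ends of Kdm6b. Peak lists held 79756 to 89274 peaks, and the covered length differed more within a genotype than between the genotypes, at 143 and 234 Mb in KO replicates 1 and 2 and 211 and 101 Mb in WT replicates 1 and 2. Read depth behind the peaks is unknown, and in bulk libraries a mark in more cells and more of the mark per cell cannot be told apart.

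H3K27me3 is laid down by Polycomb repressive complex 2 (PRC2) and is found over silent developmental genes, often as broad blankets that extend from CG-rich promoters. PRC2 can bind the mark it makes, which lets a domain grow outward from a starting site. Kdm6b, also called JMJD3, removes the mark, so its loss raises the question of where H3K27me3 is gained and whether such sites lie beside existing domains or apart from them.

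Some of the KO-only regions with the highest peaks in both KO lists lay at gene starts rich in CG dinucleotides. A promoter was met by 21 of the 64 members above height percentile 75 in both lists. Of the 6 that ranked highest by the lower of their KO height percentiles, 4 met the promoter of a coding gene, and these are printed to show the base composition described further on. Each is the RefSeq promoter on GRCm38.p6, from 250 bases before the gene's start to 50 after it, 5′ to 3′ on the gene's strand, with every CG in capitals.
Cbfa2t2, chr2:154436234-154436533, plus strand: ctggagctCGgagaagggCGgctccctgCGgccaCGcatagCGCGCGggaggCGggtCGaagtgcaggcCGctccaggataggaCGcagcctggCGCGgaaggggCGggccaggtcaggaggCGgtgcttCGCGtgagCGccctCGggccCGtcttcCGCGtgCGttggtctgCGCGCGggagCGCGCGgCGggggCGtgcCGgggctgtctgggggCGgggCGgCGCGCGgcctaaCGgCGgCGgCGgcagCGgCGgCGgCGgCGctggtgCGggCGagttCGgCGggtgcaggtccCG
Sik2, chr9:51009024-51009323, minus strand: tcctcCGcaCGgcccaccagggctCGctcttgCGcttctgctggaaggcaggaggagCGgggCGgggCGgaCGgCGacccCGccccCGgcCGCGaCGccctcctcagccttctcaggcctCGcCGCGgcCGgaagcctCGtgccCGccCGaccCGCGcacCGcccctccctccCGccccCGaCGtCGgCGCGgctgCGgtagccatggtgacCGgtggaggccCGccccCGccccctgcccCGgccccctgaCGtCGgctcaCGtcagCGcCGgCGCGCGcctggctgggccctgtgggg
Vps4a, chr8:107031019-107031318, plus strand: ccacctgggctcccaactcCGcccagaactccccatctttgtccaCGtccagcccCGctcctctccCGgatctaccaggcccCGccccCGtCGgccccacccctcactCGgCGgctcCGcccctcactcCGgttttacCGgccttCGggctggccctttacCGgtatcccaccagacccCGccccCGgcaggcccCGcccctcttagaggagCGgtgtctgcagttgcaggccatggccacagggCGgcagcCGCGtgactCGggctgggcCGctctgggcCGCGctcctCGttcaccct
Rhbdd2, chr5:135632404-135632703, plus strand: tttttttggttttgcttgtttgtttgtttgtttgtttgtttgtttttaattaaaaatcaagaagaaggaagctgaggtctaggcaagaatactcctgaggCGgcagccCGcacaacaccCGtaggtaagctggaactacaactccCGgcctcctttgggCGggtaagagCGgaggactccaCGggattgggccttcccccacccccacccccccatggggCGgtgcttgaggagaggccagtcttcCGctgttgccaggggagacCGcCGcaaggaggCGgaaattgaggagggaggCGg
These 300 bases held 51 CG at Cbfa2t2, which encodes a transcriptional corepressor, 43 at Sik2, a salt-inducible kinase gene, and 26 at Vps4a, an ATPase gene of the ESCRT membrane machinery. At Rhbdd2, which encodes a rhomboid-like membrane protein, there were 13. The median over all 20063 coding-gene promoters was 14.

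Height was compared only as a percentile within a library's own list, because the scale of the signal differs between lists and is unknown. Cbfa2t2 stood at percentile 91.5 in KO replicate 1 and 93 in KO replicate 2, Sik2 at 97 and 90.7, Rhbdd2 at 95 and 91.3 and Vps4a at 94.1 and 89.1. The Cbfa2t2 region (chr2:154436037-154437190) was covered over 395 bp in KO replicate 1 and 1070 bp in KO replicate 2, and the nearest WT peaks were 6472 bp away in WT replicate 1 and 6847 bp in WT replicate 2. At Sik2 (chr9:51009101-51010665) the KO peaks covered 1486 and 597 bp, and WT peaks came within 600 and 277 bp. The Vps4a region (chr8:107030820-107031526) had 690 and 480 bp, with WT peaks 427 and 2484 bp away, and the Rhbdd2 region (chr5:135631989-135633170) had 939 and 858 bp, with WT peaks 2526 and 4883 bp away. So the WT libraries also had peaks close by at Sik2 and Vps4a, but none that met these regions. The other 2 of the 6 were short and met no listed promoter. One of 364 bp lay 14786 bp from Dpy19l2 on chromosome 9 (24541897 to 24542260), and the other, of 437 bp, lay within Sos2, which encodes a Ras activator, on chromosome 12 (69653902 to 69654338). Their nearest regions called in all 4 were 226854 and 457605 bp away.

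Most KO-only regions were of modest height. Their median percentile was 35.8 in KO replicate 1 (quartiles 16.7 and 57.5) and 34.7 in KO replicate 2 (18.5 and 55.4), against medians of 71.9 and 79.6 for the regions called in all 4. Peaks found in a single library ranked at 32.8 in KO replicate 1 and 29.9 in KO replicate 2, close to the members. Above percentile 90 there were 38 members in KO replicate 1 and 28 in KO replicate 2, while 596 (15.1%) and 499 (12.6%) lay at or below percentile 10. The ranks in the KO libraries were only loosely related across the 3953 members (Spearman rho 0.123, a description over regions of the same 2 libraries). In all, 494 members stood above percentile 50 in both lists, and 64 above 75.

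**Figure D1:**
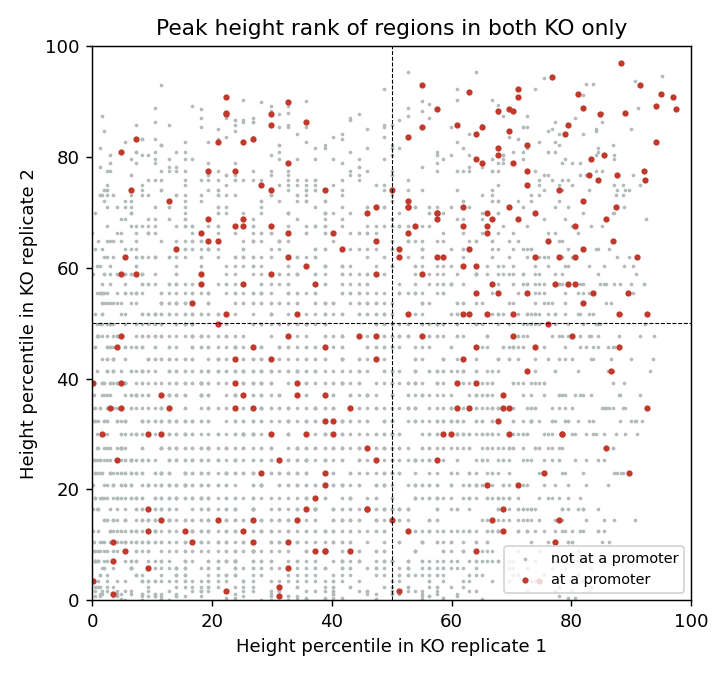
Height percentile of each of the 3953 KO-only regions in KO replicate 1 (x axis) and KO replicate 2 (y axis), with regions at a coding-gene promoter in red and the others in grey. Points spread over most of the square with little relation between the axes, and few lie above percentile 90 on either axis. Red points are most frequent at the upper right, beyond percentile 50 in both lists.

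Taller members were more often at promoters. A promoter was met by 3.38% of members whose lower percentile was at most 10, by 5.86% between 25 and 50, by 17.9% between 50 and 75 and by 32.8% (21 of 64) above 75. WT-only regions gave 2.28%, 3.26%, 5.56% and 25% (6 of 24) in the same ranges. Above percentile 50 in both libraries of the genotype, 98 of 494 KO-only regions and 18 of 240 WT-only regions were at a promoter, or 19.8% and 7.5%. The KO-only share was lower with a single KO library, at 9.62% of 5643 regions without KO replicate 1 and 5.6% of 4450 without KO replicate 2. Tall peaks at promoters were not limited to the KO libraries: of regions called in 1 library only and above percentile 90 there, the share at a promoter was 39.6% of 48 for KO replicate 2 and 28.2% of 39 for WT replicate 1. It was 10.1% of 99 for WT replicate 2 and 9.68% of 31 for KO replicate 1.

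**Figure D2:**
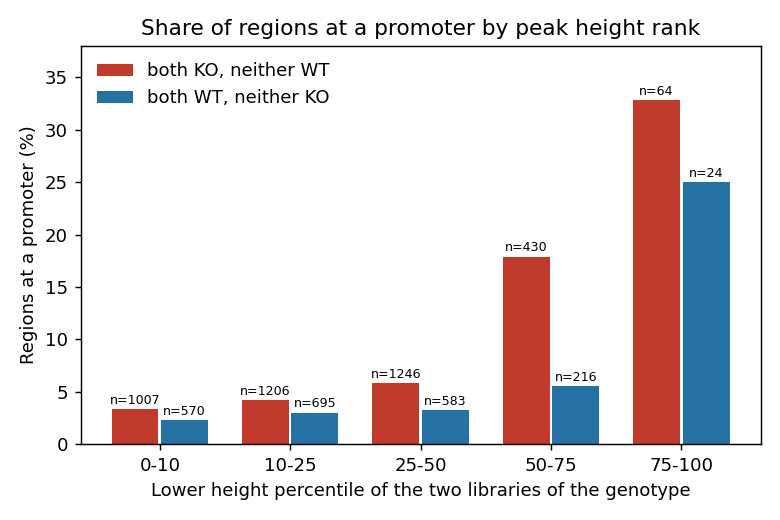
Share of regions that met a 300-base promoter (y axis, %) by the lower of the height percentiles in the 2 libraries of the genotype (x axis), for KO-only regions in red and WT-only regions in blue, with the number of regions above each bar. The share rises from 3.38% to 32.8% in KO-only regions and from 2.28% to 25% in WT-only regions.

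Over all members, 256 (6.48%) met a promoter, slightly below the 7.39% of all merged regions. The shares were 3.4% (71) of WT-only regions, 4.44% of regions called in 1 to 3 libraries and 17.3% of those called in all 4. Without KO replicate 2 the order of the genotypes turned, with 3.46% of KO-only and 3.99% of WT-only regions at a promoter. Members at a promoter were shorter and taller than the rest. Their median length was 1212 bp against 1477 bp, their median percentiles were 52.6 and 57.1 against 34.1 and 34.7 in KO replicates 1 and 2, and they lay farther from the nearest region called in all 4, at a median of 13824 bp against 5401 bp. At promoters with 10 or more CG the 207 members were shorter again, at 1135 bp, with percentiles of 60.9 and 62 and a distance of 17148 bp.

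The 256 regions touched 303 promoters, 1.51% of all promoters with a sequence. These held a median of 20 CG, and 249 (82.2%) held 10 or more. That share was 57.9% over all promoters and 70.7% over promoters met by any merged region. It was 53.2% for WT-only regions, 73.7% for regions called in 1 to 3 libraries and 68.2% for those called in all 4. The corresponding medians were 11 CG in the 77 promoters met by WT-only regions, 16 in the 5825 met by regions called in all 4 and 7 in the 9511 promoters that met no region. Regions called in 1 to 3 libraries, which include the members, met promoters with a median of 19, so CG-rich promoters were frequent among all regions not shared by the 4 libraries. How often a library met CG-rich promoters followed its covered length: peaks met 41.7% and 56% of these promoters in KO replicates 1 and 2 and 48.4% and 31.6% in WT replicates 1 and 2. With each list reduced to its tallest peaks at equal covered length, 24.6% of the 513 KO-only regions then found, most of them not members of the set described here, and 7.24% of the 1727 WT-only regions were at a promoter.

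**Figure D3:**
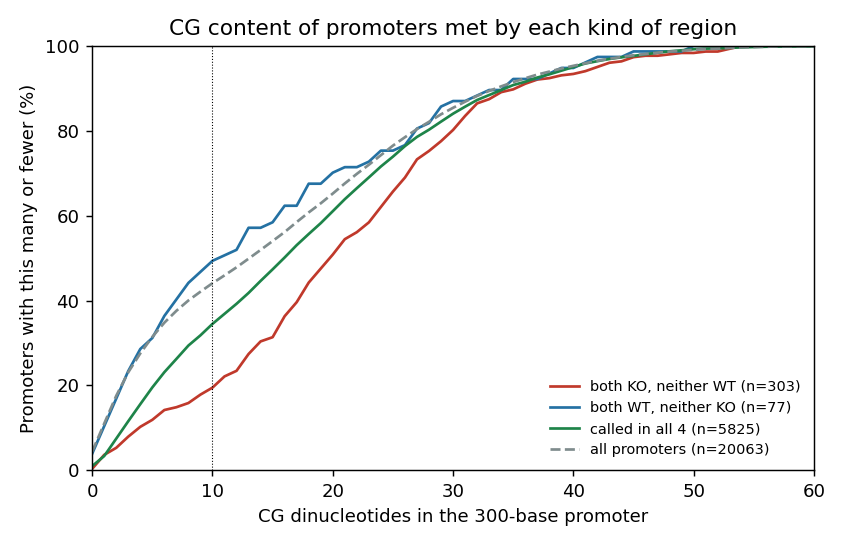
Cumulative share of promoters (y axis, %) with a given number of CG dinucleotides or fewer in 300 bases (x axis), for promoters met by KO-only regions, by WT-only regions, by regions called in all 4, and for all promoters. The curve for KO-only regions lies to the right of the others over most of its length, with a median of 20 CG against 11, 16 and 14.

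A total of 3 short motifs were read in the promoters on both strands as plain letter matches. CCGGAA, the core bound by ETS-family factors, was in 33% of the 303 promoters, 15.6% of those met by WT-only regions, 13% of those met by regions called in all 4 and 19.1% of all promoters. This motif holds a CG itself. Among promoters with 10 or more CG the shares were 37.8%, 29.3%, 16.4% and 28.9%, and regions called in 1 to 3 libraries gave 35.3%, close to the members. CCAAT, the box read by the factor NF-Y, was in 38.3% of member promoters and 38.1% of all. TATAAA, the core of the TATA box, was in 9.24% and 12.7%, but among promoters with 10 or more CG the order turned, with 7.23% and 5.34%. None of these motifs is contained in another. Of the 4 promoters printed above, the one at Sik2 held 1 match to CCGGAA and the others none.

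A larger number of members lay close to shared domains. The median distance to the nearest region called in all 4 was 5828 bp (quartiles 1338 and 18973 bp), against 9292 bp for WT-only regions and 8724 bp for all regions called in 1 to 3 libraries. Within 1 kb of a shared region there were 847 members (21.4%), and within 5 kb 1853 (46.9%), compared with 15.3% and 36% of WT-only regions and 17% and 38.7% of regions called in 1 to 3. Beyond 100 kb there were 233 members (5.89%), and 8.05% and 7.72% of the comparison sets. Height followed no common gradient with this distance in the KO libraries. Within 1 kb, between 5 and 20 kb and beyond 100 kb, the median percentiles in KO replicate 2 were 39.2, 34.7 and 29.9. In KO replicate 1 they were 37.1, 34.1 and 41.7, so they fell at first and were highest in the farthest members. The median length was 1482 bp within 1 kb and 1349 bp beyond 100 kb. The share at a promoter rose with distance, from 3.19% within 1 kb to 6.7% between 5 and 20 kb and 12.4% beyond 100 kb.

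**Figure D4:**
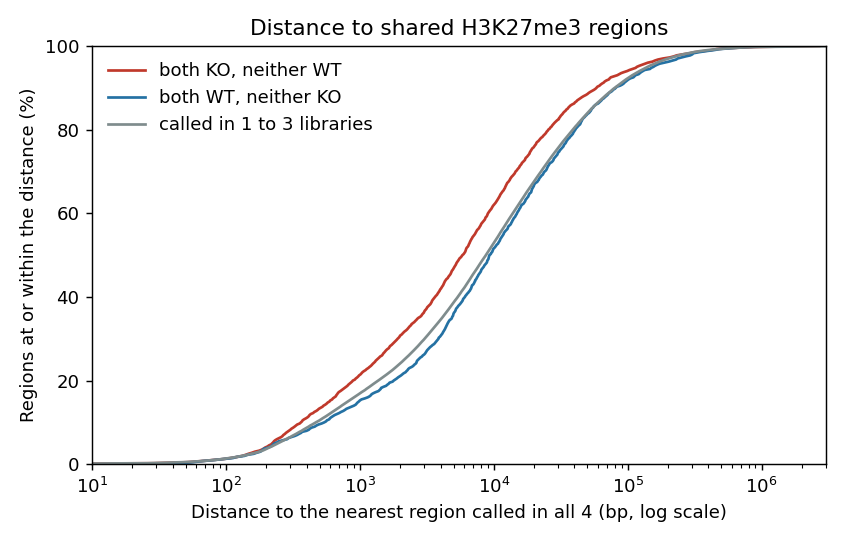
Share of regions (y axis, %) whose distance to the nearest region called in all 4 libraries is at most the value on the x axis (bp, log scale), for KO-only regions, WT-only regions and all regions called in 1 to 3 libraries. The curve of KO-only regions lies above the others from about 1 kb to 100 kb, with 46.9% within 5 kb against 36% and 38.7%.

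The surroundings were marked in WT as well. In the flanks from 5 to 10 kb beyond a member's edge, peaks of KO replicates 1 and 2 covered 19.4% and 34% of the bases, and those of WT replicates 1 and 2 covered 28.5% and 12.5%. In the same flanks of WT-only regions the values were 14.5%, 26.3%, 25.3% and 10.3%. All 4 libraries were thus more covered around KO-only regions than around WT-only ones, and in each set the order of the libraries was that of their covered length. Coverage was lowest in the first 1 kb, at 6.12%, 11.8%, 10.5% and 4.09%, where any peak that touches the member would have been merged into it. The nearest WT peak was a median of 1271 bp away, 981 members (24.8%) had one within 500 bp and 3298 (83.4%) within 5 kb. Only 55 members (1.39%) had none within 50 kb.

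**Figure D5:**
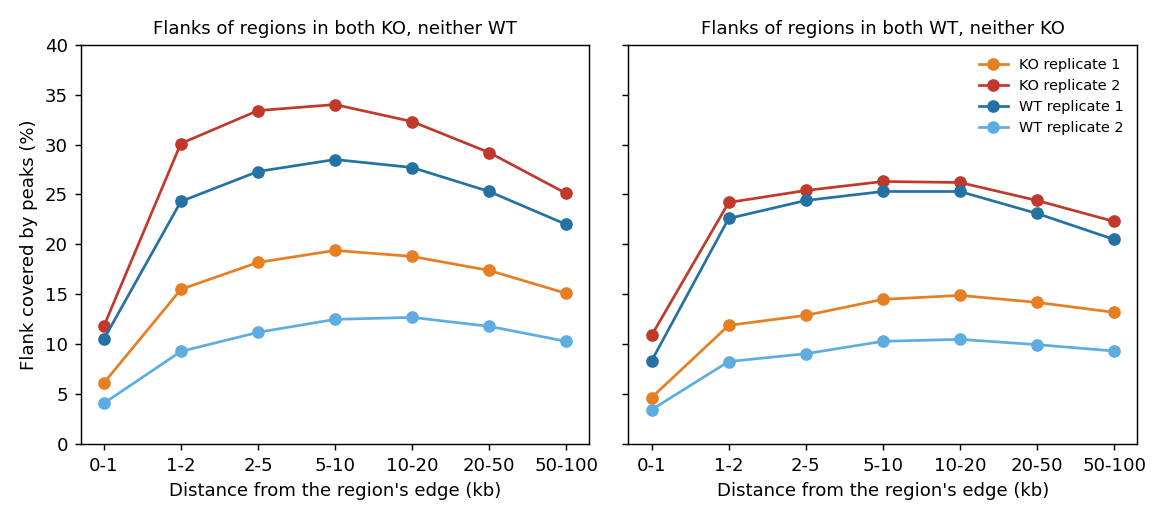
Share of flanking bases covered by peaks (y axis, %) at increasing distance from the region's edge (x axis, kb) in each of the 4 libraries, for flanks of KO-only regions (left) and WT-only regions (right). Lines keep the order KO replicate 2, WT replicate 1, KO replicate 1, WT replicate 2 in both panels, and reach 34% and 26.3% in KO replicate 2 between 5 and 10 kb.

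The next merged region on either side of a member was called in all 4 in 21.9% of cases, where such regions were 23% of all regions. Another KO-only region was the neighbour in 4.53%, against a share of 3.4%. A shared region stood directly on at least 1 side of 1506 members (38.1%) and on both sides of 228 (5.77%).

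At the edge of the rule stood regions called in both KO lists and in only 1 WT list. Regions called in both KO lists and in WT replicate 1 numbered 9961, and in both KO lists and WT replicate 2 there were 1443. The WT peaks covered a median of 76.7% and 45.9% of these, and under 10% in only 2 and 6 of them. A WT peak is itself part of the merged region, so this share is seldom low. It therefore does not measure how narrowly membership was missed. On the inner side, the closest WT peak was 1 bp from a member, and the lowest members stood at percentile 0.0163 in KO replicate 1 and 0.0168 in KO replicate 2. Nearly all members were 1 peak per library (98.1% in KO replicate 1, 99.4% in KO replicate 2), and the KO peaks shared bases in 3951 of 3953. KO replicate 2 covered a median of 94.9% of a member and KO replicate 1 65.2%, and the former had the wider peak in 75% of them.

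The membership depended on the length of the lists. When each list was reduced to its tallest peaks up to the covered length of the shortest list, 513 KO-only and 1727 WT-only regions were found, which turned the order of the genotypes, and 83 of the 3953 members (2.1%), among them 29 of the 256 at promoters, still met a KO-only region. Of the others, 2413 held no peak of any library. With the taller 75% of peaks in each list, 1739 members (44%) and 171 of the 256 at promoters met a KO-only region. Leaving out a library, which asks less of a region, gave 22101 regions without KO replicate 1, 13922 without KO replicate 2, 15499 without WT replicate 1 and 5477 without WT replicate 2. The WT-only counts under the same omissions were 3119, 8202, 13793 and 15653, so the order of the genotypes also turned without WT replicate 2. With a library left out, its genotype needed a peak in only 1 list and the other genotype in both. These counts are thus not on equal terms.

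The members' share at gene ends lay between those of WT-only and shared regions and slightly below that of all merged regions. A window of 2000 bp on each side of either end of a coding gene, starts included, was met by 16.3% of members. The shares were 10% of WT-only regions, 31.6% of regions called in all 4 and 17.9% of all merged regions. For gene starts alone they were 10.6%, 5.8%, 21.5% and 11% in the same order, with members first. Gene bodies held 1708 members (43.2%), against 42.9%, 51.5% and 46.5%. More than 50 kb from any coding gene lay 582 members (14.7%), against 15.9%, 9.54% and 13.4%. The gene with the most member bases was Foxp1, a forkhead factor gene used in B cell development, with 8 members and 16646 bp on chromosome 6 (98925342 to 99522746). KO peaks covered 28.5% and 43.7% of its body and WT peaks 32% and 12%, so the KO and WT values overlapped. Tbxas1, the thromboxane synthase gene, held 6 members and 14884 bp, Cacna1d, a calcium channel gene, 7 and 14158 bp, and Neo1, which encodes the receptor neogenin, 5 and 11457 bp. In these 3 genes, as in Foxp1, WT replicate 1 had a higher covered share than KO replicate 1.

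Members came mostly singly. Another member lay within 10 kb of 678 (17.2%), and 8.19% of the less numerous WT-only regions had one of their own kind so near. The 678 formed 287 pairs, 28 groups of 3 and 5 groups of 4. The widest of the 4 named groups spanned 22285 bp on chromosome 12 (15884159 to 15906443) with Trib2, a pseudokinase gene, as the nearest gene, and was covered to 18.8% and 35.2% in KO and to 0% in both WT libraries. The next spanned 19033 bp at Ncoa5 and the lower-coordinate end of Cd40, which encodes a receptor for T cell help, on chromosome 2 (165039007 to 165058039). Its covered share was 26.4% and 44.1% in KO, and 0% and 8.05% in WT. A group on chromosome 11 (44587194 to 44602153), nearest to the B cell factor gene Ebf1 and to Rnf145, had 30.5% and 48.5% in KO and 0% in both WT libraries. One at Thsd4 on chromosome 9 (60440523 to 60452346) had 48.9% and 47% in KO and 9.86% and 0% in WT. In all 4 groups both KO libraries lay above both WT libraries, which the choice of members fixes in large part.

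Of the 5 members farthest from a shared region, 2 met a promoter. The farthest lay at the start of Gbe1, the glycogen branching enzyme gene, on chromosome 16 (70311515 to 70314083), 2689761 bp from a region called in all 4, yet 283 bp from a peak of WT replicate 1. Its percentiles were 53.8 and 67.5. At Pclo, a presynaptic scaffold gene, the region on chromosome 5 (14514928 to 14516215) stood 2130054 bp from a shared region, with the nearest WT peaks 1416747 and 1419053 bp away and percentiles of 29.8 and 43.6. Elavl2, a neuronal RNA-binding protein gene, held the next, on chromosome 4 (91374121 to 91375499), at percentiles 35.8 and 27.5. The other 2 were neighbours 2302 bp apart on chromosome 5 (10953211 to 10954686 and 10956989 to 10958334), 385721 and 382073 bp from the nearest named gene, Speer1.

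Genes of B cells, of other blood cells and of Polycomb were read from 15 lists. A coding gene counted as met if a member overlapped its body or the 2000 bp around either end, which held for 1626 of 20665 genes (7.87%), and more easily for long genes. Of 19 plasma cell genes, 0 were met, and likewise 0 of 26 cell cycle and apoptosis genes. The germinal center list had 3 of 31 (Bach2, Stat6 and Tcf3), memory B 2 of 20, B cell costimulation and signalling 4 of 29, interferon response 5 of 26, immediate early genes 4 of 25 and Polycomb and H3K27 demethylase genes 3 of 27. Migration and chemokine genes had 1 of 24. For cells that a splenic sort could also hold, the counts were 3 of 26 T cell, 1 of 15 NK cell, 3 of 27 myeloid and 1 of 14 erythroid genes. Hox genes had 3 of 39 and developmental transcription factors 3 of 69. With these list sizes most shares stood within a few genes of the background, and no list is read as different from it.

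The promoters of 4 listed genes are printed to set 2 of moderate CG content beside 2 that were CG-poor. They belong to a Polycomb gene, a B cell survival receptor gene, an interferon-induced gene and a further B cell gene, were chosen after their values were seen, and have the same format as those above.
Eed, chr7:89980927-89981226, minus strand: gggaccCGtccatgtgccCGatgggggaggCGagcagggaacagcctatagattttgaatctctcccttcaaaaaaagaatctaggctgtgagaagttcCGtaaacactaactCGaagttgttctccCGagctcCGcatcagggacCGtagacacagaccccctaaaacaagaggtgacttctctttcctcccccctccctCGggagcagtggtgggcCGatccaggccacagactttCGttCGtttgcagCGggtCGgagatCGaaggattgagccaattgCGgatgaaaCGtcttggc
Tnfrsf13c, chr15:82224331-82224630, minus strand: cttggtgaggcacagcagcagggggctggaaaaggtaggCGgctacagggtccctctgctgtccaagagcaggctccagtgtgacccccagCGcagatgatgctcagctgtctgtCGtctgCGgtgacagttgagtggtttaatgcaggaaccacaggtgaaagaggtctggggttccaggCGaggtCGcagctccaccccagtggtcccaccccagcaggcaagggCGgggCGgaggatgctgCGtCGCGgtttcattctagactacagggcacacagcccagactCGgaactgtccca
Ifit1, chr19:34640639-34640938, plus strand: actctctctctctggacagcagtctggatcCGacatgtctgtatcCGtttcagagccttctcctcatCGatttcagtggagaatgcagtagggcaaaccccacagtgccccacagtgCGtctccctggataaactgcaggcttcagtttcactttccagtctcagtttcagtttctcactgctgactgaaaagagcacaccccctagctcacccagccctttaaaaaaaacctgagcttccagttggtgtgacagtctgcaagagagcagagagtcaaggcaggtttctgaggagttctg
Fcrl5, chr3:87435532-87435831, plus strand: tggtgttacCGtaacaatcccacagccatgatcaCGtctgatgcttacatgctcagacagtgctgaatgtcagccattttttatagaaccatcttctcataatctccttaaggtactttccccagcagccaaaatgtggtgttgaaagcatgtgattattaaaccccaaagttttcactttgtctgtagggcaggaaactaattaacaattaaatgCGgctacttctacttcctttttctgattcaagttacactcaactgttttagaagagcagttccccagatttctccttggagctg
Eed encodes the PRC2 subunit that binds H3K27me3, and Tnfrsf13c the BAFF receptor that sustains B cells. Their promoters held 17 and 12 CG. Ifit1, an interferon-induced antiviral gene, had 4 and Fcrl5, an Fc receptor-like gene of memory B cells, 3. The Eed region (chr7:89980676-89981411) stood at percentiles 74 and 62 with WT peaks 9097 and 28455 bp away, and the Tnfrsf13c region (chr15:82223961-82225170) at 72.6 and 74.9 with WT peaks 7790 and 10061 bp away. At Ifit1 (chr19:34639257-34641566) the percentiles were 22.3 and 88, and at Fcrl5 (chr3:87435369-87437153) 32.8 and 10.5. Peaks of WT replicates 1 and 2 lay nearer to the Ifit1 region, at 922 and 14713 bp, and were 2699 and 9689 bp from the Fcrl5 region. Heights at Eed and Tnfrsf13c were thus above the median of their list in both KO libraries, and those at Fcrl5 in neither.

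Listed genes were ranked only where the 2000 bp on each side of a gene end met a member. The covered share counts every peak in the window, whether or not it belongs to a member. By the mean of the KO libraries, this window was most covered at Cd40. Its covered share was 57% and 92.6% in KO replicates 1 and 2 and 0% in both WT libraries. Ifit1 had 58.1% and 84.5% in KO and 0% in both WT libraries. At Gbp5, an interferon-induced GTPase gene, the values were 33.8% and 46.3% against 0% and 0%, and at Fcrl5 36.7% and 44.2% against 0% and 0%. Tbx21, which encodes the factor T-bet, had 7.97% and 69%, and Phf1, a PRC2 accessory subunit gene, 14.4% and 55.2%, both with 0% in WT. In these 6 windows both WT libraries had no peak. Each window was chosen because a KO-only region met it, which fixes this contrast in large part. Eed and Tnfrsf13c, whose promoters are printed above, were less covered. Their windows had 8.1% and 18.4%, and 27.9% and 30.1%, in KO replicates 1 and 2.

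At the other 6 of the 12 best covered windows that met a member, WT replicate 1 was covered as well. Bmi1, a core gene of Polycomb repressive complex 1, had 52.7% and 57.2% in KO and 32.9% and 3.2% in WT. The window of Hoxa6 had 54.3% and 69% in KO and 28.3% and 0% in WT, and that of Hoxa5, which met the same member, 47.5% and 69% against 21.6% and 0%. Csf2rb, a cytokine receptor subunit gene of myeloid cells, had 44.9% and 79.7% against 14.8% and 0%. For Dusp5, a phosphatase gene that acts on ERK, the values were 40.6% and 80% in KO and 50.6% and 0% in WT, and for Lat, a T cell signalling adaptor gene, 29% and 54.3% against 60.3% and 0%. At Dusp5 and Lat the KO and WT values overlapped, although a KO-only region lay in the window, since WT replicate 1 had a peak beside it. The member at Dusp5 stood low, at percentiles 3.52 and 20.8 in KO replicates 1 and 2, and that at Lat at 8.37 and 1.14. The Bmi1 member was 805 bp long, so other peaks made up part of the KO cover in its window.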

How the data were processed

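Peak lists from 4 H3K27me3 CUT&Tag libraries were analysed, 2 KO and 2 WT. The authors deposited, for each peak, its total and highest signal, called per library. Per the submitters' processing notes, the tools were SEACR, deepTools, SAMtools 1.11, Bowtie2 2.4.2 and Trim Galore 0.6.6, with the build mm10. The sources used here do not give their roles and settings, the control, the threshold or the signal scale. Replicate numbers only name libraries.

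Peaks on chromosomes 1 to 19 were merged where they overlapped or touched, and presence needed 1 bp. Distances are gaps between edges. Height percentile is the share of a list's peaks at or below a region's tallest peak. Genes (20665 coding) and promoters (20063 sequences for 16438 of these genes) came from RefSeq, GRCm38.p6, the assembly behind mm10. Of 415 listed symbols, 401 were found. Exons were not used.

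The members and lists were chosen with earlier results of these data known, and the promoter, CG and motif measures were added after the data were seen. Named regions were the 6 highest by lower percentile, the 5 farthest from a shared region and the 4 largest groups. Named genes were the 4 with most member bases and 12 listed genes whose end window met a member. These 12 had the highest mean KO coverage of the window. Eed and Tnfrsf13c were outside these 12 and were named with their promoters after their values were seen. Bach2, Stat6 and Tcf3 were named as the germinal center genes met. Predicted genes and olfactory, vomeronasal and taste receptor genes were passed over. No test was run, as the contrast chose the members and regions are not replicates. Interval functions were tested on simulated data. Figures were drawn with matplotlib 3.10.9 and tables made with pandas 2.3.3, scipy 1.17.1 and numpy 2.4.6 under Python 3.11.15.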

Additional observations from a re-analysis of the deposited data

How the results depend on the processing

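Each share here is over the KO-only regions found under that setting, which need not be among the 3953 members. With peaks up to 500 bp apart merged, 41.4% lay within 5 kb of a shared region, 18.5% met a gene end and 12.5% had another within 10 kb (main values 46.9%, 16.3% and 17.2%). With 2000 bp, there were 1390 such regions and these shares were 26.3%, 23.5% and 5.68%. With the taller 75% of peaks, 39.8% were near a shared region, 13.7% near another such region, and the median percentiles were 37.8 and 37.3. At equal covered length there were 513 such regions, and only 83 of the 3953 members met one. Near a shared region, at a gene end and near another such region, the shares were 28.3%, 36.5% and 1.95%. The percentiles were 47.7 and 29.4. Where 25% of a region had to be covered, 36.2% were near a shared region. Leaving out each library in turn gave 5477 to 22101 such regions, with fewer libraries needed to qualify. The share near a shared region ran from 40.3% to 60.3% and that at a gene end from 13.5% to 16.5%. That near another such region ran from 22.2% to 51.7%. The median percentile ran from 34.1 to 41.7 in KO replicate 1 and from 29.9 to 47.7 in KO replicate 2. Other limits gave 64.4% near a region called in at least 3 libraries, 30.8% within 2 kb and 62% within 10 kb. Gene end windows of 1000 and 5000 bp gave 12.3% and 26.8%, and neighbours within 5 and 50 kb 10.3% and 43.7%. By total signal the percentiles were 29.5 and 32.2. The cause of these shifts was not tested.

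The share of KO-only regions at a promoter exceeded that of WT-only regions under the merging, height, covered-length, 25% and left-out-library settings. The exception was without KO replicate 2, where it was 3.46% against 3.99%. The share of met promoters with 10 or more CG stayed between 75.7% and 92.1%, where it was 57.9% over all promoters. No paired analysis was possible because the replicate numbers used here were given in accession order, so they pair no libraries, and no test was run. Read depth, unknown here, limits which low peaks a list can hold.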

Other observations

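The KO-only regions were spread over all 19 autosomes. Their share of the merged regions of a chromosome ran from 2.94% on chromosome 14 to 3.72% on chromosome 17. Of 917 microRNA hairpins in the RefSeq table, 3 lay in a member, those of Mir26b, Mir7022 and Mir6410.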
